A study of Mus musculus with 6 samples.

Results

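The genes described here are 40 genes of mitosis and of the passage from G2 into M phase. They are mitotic cyclins with their kinase, mitotic kinases, kinesins, kinetochore proteins, spindle checkpoint proteins and cytokinesis proteins. They were picked by gene symbol, not by a measured value, and all 40 were found among the 32285 genes of the deposited count table. All 40 passed the filter on low counts, which left 14814 genes for testing.

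The data are 6 RNA-seq libraries of mouse spermatogonia kept in culture as GS cells, which are germline stem cell cultures grown from the testis. Both groups carried loxP-flanked Cdkn1c alleles (p57 flox/flox), and 3 control libraries were compared with 3 libraries from p57 flox/flox-Cre cells, called p57 KO here. The Cre recombinase came from an adenovirus, and 2 days after infection the cells were freed with trypsin, run over a Sephadex column and used for RNA. Whether the control cells received a virus, which part of Cdkn1c was deleted and whether replicates were separate cultures is not stated in the labels, so the p-values cover only the spread among the 6 libraries, and that spread may be technical. The labels give the age of the mice as 3 days in one place and 10 days in another, and the strain as BDF1 in one place and as C57BL/6 and 129 in another.

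Cdkn1c encodes p57, an inhibitor of cyclin-dependent kinases. Cells enter mitosis when CDK1 bound to cyclin B is freed of the inhibitory phosphates that WEE1 adds and CDC25 phosphatases remove. Kinesins and assembly factors then build the spindle, kinetochores tie chromosomes to it, and the anaphase-promoting complex (APC/C) with CDC20 destroys cyclin B and securin so that sister chromatids part. Most of these genes are transcribed late in the cell cycle, and the DREAM complex, B-MYB and FOXM1 act on many of them through CHR elements (TTTGAA or TTCGAA), while NF-Y binds CCAAT boxes in the same promoters. In a culture, RNA of these genes is therefore read as a sign of how many cells are in G2 and M phase, and in bulk RNA more such cells and more RNA per cell cannot be told apart.

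The promoters of 5 of these genes are printed to show the shared sequence words, 200 bases up to the annotated start, 5′ to 3′ on the strand of the gene, from RefSeq (GRCm38.p6). Hmmr, Cenpf and Top2a are genes that rose in p57 KO, and Cdk1 and Ccnb2 are core mitotic genes that were not called. Capitals mark CCAAT or its reverse complement ATTGG, and the CHR words TTTGAA and TTCGAA or the reverse complement TTCAAA.
Hmmr, chr11:40733438-40733637, minus strand: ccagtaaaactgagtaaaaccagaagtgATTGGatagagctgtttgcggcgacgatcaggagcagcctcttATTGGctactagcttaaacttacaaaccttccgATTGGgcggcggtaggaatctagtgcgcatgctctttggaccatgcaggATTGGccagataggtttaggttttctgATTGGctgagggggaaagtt
Cenpf, chr1:189688087-189688286, minus strand: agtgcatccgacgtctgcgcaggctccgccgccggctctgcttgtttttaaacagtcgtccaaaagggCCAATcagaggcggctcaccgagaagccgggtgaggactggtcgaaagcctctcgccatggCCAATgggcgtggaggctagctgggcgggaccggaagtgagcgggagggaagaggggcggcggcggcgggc
Top2a, chr11:99024190-99024389, minus strand: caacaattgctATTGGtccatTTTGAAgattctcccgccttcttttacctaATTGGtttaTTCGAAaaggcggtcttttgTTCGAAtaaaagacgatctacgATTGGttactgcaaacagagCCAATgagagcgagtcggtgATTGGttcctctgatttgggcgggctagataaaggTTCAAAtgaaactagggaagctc
Cdk1, chr10:69352913-69353112, minus strand: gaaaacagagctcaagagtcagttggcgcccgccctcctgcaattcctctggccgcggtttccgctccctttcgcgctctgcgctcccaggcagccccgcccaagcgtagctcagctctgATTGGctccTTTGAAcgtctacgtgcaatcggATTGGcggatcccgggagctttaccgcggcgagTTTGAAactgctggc
Ccnb2, chr9:70421555-70421754, minus strand: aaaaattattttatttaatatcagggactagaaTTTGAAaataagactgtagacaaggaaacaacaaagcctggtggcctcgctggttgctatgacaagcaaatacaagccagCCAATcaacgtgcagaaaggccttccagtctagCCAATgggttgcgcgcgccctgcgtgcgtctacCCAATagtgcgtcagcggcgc
Within 250 bases before the start, the Hmmr promoter held 5 CCAAT boxes and no CHR word. The Top2a promoter held 6 CCAAT boxes and 4 CHR words, Cdk1 held 3 and 2, Ccnb2 held 3 and 1, and Cenpf held 2 CCAAT boxes and no CHR word.

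A promoter entry was found for 34 of the 40 genes. The genes without one were Kif20a, Cdc25c, Tpx2, Aurkb, Ccna2 and Wee1. CCAAT, searched on both strands, was present in 28 of the 34 promoters (82.4%), against 40.6% of the 11421 tested genes with an entry and 37.5% of all 27025 genes of the promoter table. At least 2 CCAAT boxes were present in 19 promoters (55.9%), against 15.1% of tested genes. A CHR word was present in 11 promoters (32.4%), against 14.6% of tested genes and 19.6% of the whole table, and both motifs were present in 10 (29.4%), against 6.72% of tested genes. The E2F words TTCGCGC and TTGGCGC, on both strands, were in 5 promoters (14.7%), against 6.61% of tested genes. CCAAT was the most frequent of these words in the 34 promoters, but it was also the most frequent in tested genes. CCAAT, CHR and E2F words were each more frequent in the 34 promoters than in tested genes. Only these exact words within 250 bases before the annotated start were counted. An element after the start, farther away or of another sequence would be missed, so a promoter without a word may still have the element. Whether the words set the risen genes apart from those that were not called was not tested, and 8 risen genes are few for such a comparison. Of the 8 risen genes with an entry, 6 had a CCAAT box and 3 a CHR word. Of the 25 genes with an entry that were not called, 21 had a CCAAT box and 8 a CHR word. Among the fallen genes only Cenpa had an entry. The entries for Kif2c and Cdca8 begin 3867 and 2394 bases downstream of the 5′ end of the gene in the GENCODE annotation, so another start may be the one in use.

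**Figure D1:**
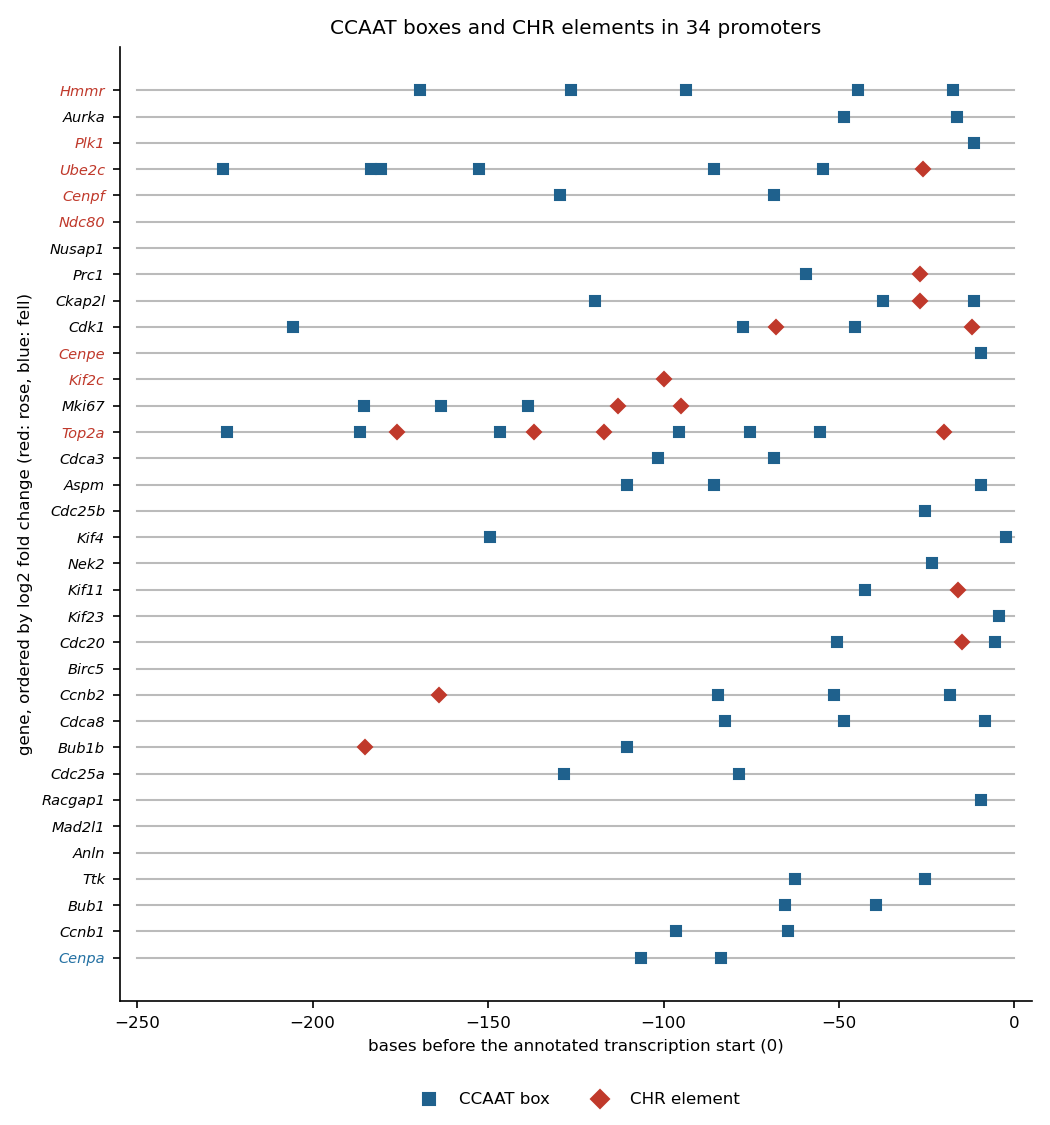
Positions of CCAAT boxes (squares) and CHR words (diamonds) in the 34 promoters, with bases before the annotated start on the horizontal axis and genes ordered by log2 fold change on the vertical axis. CCAAT boxes are spread over genes that rose and genes that were not called, and 28 of 34 promoters have at least 1. Cenpa, the only fallen gene with an entry, also has CCAAT boxes.

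Cdkn1c RNA was lower in all 3 p57 KO libraries than in any control library. Levels are counts scaled to a common library total after TMM normalisation (CPM). Cdkn1c stood at 20.9, 21.4 and 19.9 CPM in control replicates 1 to 3 and at 8.71, 9.44 and 8.51 CPM in p57 KO replicates 1 to 3. Its log2 fold change of p57 KO against control was -1.22 with an SE of 0.09 (edgeR adjusted p = 4.07e-09). In an exact two-sided permutation test p was 0.1, below which 3 libraries against 3 cannot go. Library totals lay between 15662833 and 17893671 counts, and a mitosis gene had between 128 and 8213 counts in a library. Cdkn1a, which encodes the related inhibitor p21, stood at 50.6, 66.9 and 61 CPM in control and at 127, 147 and 157 CPM in p57 KO (log2 fold change 1.27, SE 0.14, edgeR adjusted p = 0.00583).

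The cells of the culture were checked against marker lists, and several of the lists moved with the groups. Of all tested genes, 11.6% rose and 11.6% fell at an edgeR adjusted p under 0.05. Of 20 fibroblast and feeder cell markers, 6 rose and none fell, with a median log2 fold change of 1.46. Their summed level was 934 to 1195 CPM in control and 1473 to 2920 CPM in p57 KO, and none was at 0. Of 15 spermatogonia markers, 10 fell and none rose, and their summed level went from 4829.6 to 4875 CPM in control to 4169 to 4389.8 CPM in p57 KO. None of the 15 was at 0 in all libraries, so the markers of the labelled cell type were present. Of 7 macrophage markers 3 were tested and rose, with sums of 13 to 14.2 CPM in control and 18.6 to 22.5 CPM in p57 KO. Endothelial markers summed to 82.3 to 86.3 CPM in control and 74.8 to 78.2 CPM in p57 KO, without overlap, and of 4 tested Cdh5 and Kdr fell (-0.60 and -0.19) and Tek rose (0.52). Sertoli markers summed to 27.8 to 31.8 CPM in control and 27.3 to 28.8 CPM in p57 KO, and Leydig markers summed to at most 3.88 CPM with Hsd3b1 at 0.

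Most mitosis genes were slightly higher in p57 KO, and the changes were small. A gene was called when its edgeR adjusted p over all 14814 genes was under 0.05, and only called genes are said to rise or fall. Of the 40 genes 9 rose (22.5%), against 11.6% of all tested genes. Hmmr, Plk1, Ube2c, Tpx2, Cenpf, Ndc80, Cenpe, Kif2c and Top2a rose. Wee1 and Cenpa fell, which is 5.0% of the genes against 11.6% of all tested genes, and 23.3% of all tested genes were called in either direction. Among the 9581 tested genes within the CPM range of the mitosis genes, 9.97% rose. A positive log2 fold change was found for 31 of 40 genes (77.5%), against 49.6% of all tested genes. The median log2 fold change was 0.09, against -0.0019 over all tested genes, and single genes ran from -0.17 to 0.32. In 19 of the genes the log2 fold change lay within 0.1 of 0.

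Every p57 KO library lay above every control library in 11 of the 40 genes (27.5%), against 19.5% of all tested genes. The reverse held for 2 genes (5.0%), against 19.7%. Nek2, Cdc25b and Cdca3 were separated in this way without being called, and Top2a was called with overlapping groups.

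The count of risen genes rested on single libraries. Without p57 KO replicate 1 it was 21, while 14.2% of all tested genes rose, and without control replicate 3 or p57 KO replicate 2 it was 2 each time (7.78% and 8.55% of all tested genes). Leaving out control replicate 1 gave 7 (8.12% of all tested genes), leaving out control replicate 2 gave 9 (9.57%), and leaving out p57 KO replicate 3 gave 7 (9.71%). With the mean level of the fibroblast markers as a covariate none of the 40 rose in edgeR, and 1.48% of all tested genes rose. At an unadjusted p under 0.05, 1 of the 40 was higher and 4 were lower. Shares of all tested genes that rose or fell, here and below, are at the adjusted p. None was taken at an unadjusted p. Only Ccnb1 was called lower with the fibroblast covariate (-0.29, edgeR adjusted p = 0.0354), against 0.972% of all tested genes. That covariate runs with the groups, so its part in the result cannot be told apart from that of the genotype. None of the 40 was called in either direction in edgeR's test against a fold of 1.2, where none had an unadjusted p under 0.05 and 2.79% of all tested genes were called higher. DESeq2 called 11 higher and 1 lower, and limma-voom 12 higher and 2 lower. The shares of all tested genes called higher by DESeq2 and limma-voom are not given here, so these counts cannot be set against them.

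**Figure D2:**
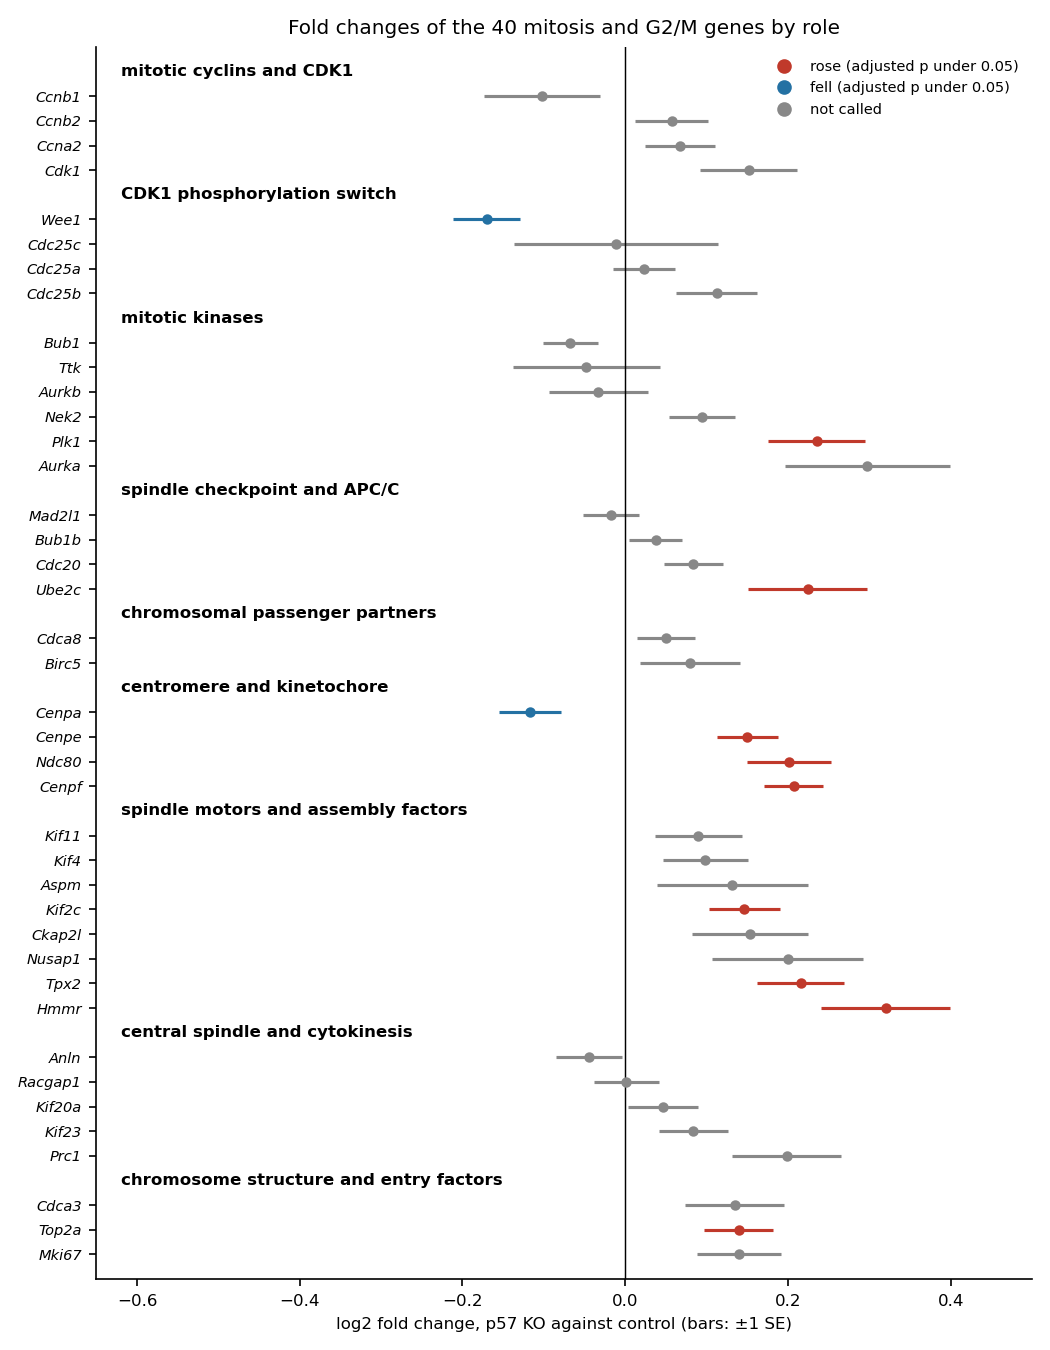
Log2 fold change of each of the 40 genes, p57 KO against control, on the horizontal axis with bars of 1 SE, grouped by role on the vertical axis. Spindle and kinetochore genes reach up to 0.32 to the right, while the cyclins stay near 0 and Wee1 lies farthest to the left at -0.17.

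The mitotic cyclins and CDK1, the kinase that drives entry into mitosis, were not called. At an unadjusted p under 0.05, 1 of these 4 genes was higher and none lower in edgeR, and neither DESeq2 nor limma-voom called any. Without a filter on low counts edgeR called Ccnb1 and Cdk1, and with the fibroblast covariate it called Ccnb1 lower. A fit with a block for the replicate number also called Ccnb1 and Cdk1. Ccna2, cyclin A2 of S and G2 phase, stood at 111, 117 and 107 CPM in control and at 111, 124 and 116 CPM in p57 KO (log2 fold change 0.07, SE 0.04, edgeR adjusted p = 0.277). Ccnb1, the main cyclin of M phase, stood at 124, 138 and 126 CPM in control and at 110.4, 131 and 120.0 CPM in p57 KO. Its log2 fold change of -0.10, with an SE of 0.07, was not called (edgeR adjusted p = 0.368) and was opposite in sign to that of its paralogue Ccnb2. Ccnb2 stood at 65.7, 63.2 and 63 CPM in control and at 63.6, 69.9 and 66.1 CPM in p57 KO (log2 fold change 0.06, SE 0.05, edgeR adjusted p = 0.393). Cdk1 stood at 49, 48.8 and 45.3 CPM in control and at 48.9, 58.4 and 51.8 CPM in p57 KO. The groups of Cdk1 overlapped through p57 KO replicate 1 (log2 fold change 0.15, SE 0.06, edgeR adjusted p = 0.0747), and without that library Cdk1 was called higher (0.20, edgeR adjusted p = 0.00929). Ccnb1 was called lower without p57 KO replicate 2 (-0.17, edgeR adjusted p = 0.0387).

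In the phosphorylation switch on CDK1, the inhibitory kinase gene fell and the phosphatase genes were not called. Wee1 encodes the kinase that holds CDK1 inactive before mitosis (chromosome 7, 110122046 to 110143286, plus strand, mm10). Its level was 127, 135 and 124 CPM in control and 111, 122 and 110.2 CPM in p57 KO, so that every p57 KO library lay below every control library. The means were 129 ± 5.35 and 114 ± 6.44 CPM (SD, n = 3 each), and Wee1 fell by 0.17 on the log2 scale (SE 0.04, edgeR adjusted p = 0.00551). The call held in all 6 fits that left out 1 library, with a largest edgeR adjusted p of 0.0418, and was lost with the fibroblast covariate, at -0.22 and an edgeR adjusted p of 0.113.

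The 3 CDC25 phosphatases, which remove the phosphates that WEE1 adds, stayed within a log2 fold change of 0.11. Cdc25a stood at 79.8, 80.4 and 81 CPM in control and at 81, 83.3 and 80.7 CPM in p57 KO (0.02, SE 0.04, edgeR adjusted p = 0.711). Cdc25b stood at 49.7, 52 and 53.1 CPM in control and at 54.2, 59.1 and 54 CPM in p57 KO (0.11, SE 0.05, edgeR adjusted p = 0.108), without overlap of the groups. Cdc25c stood at 10.7, 10.2 and 8.18 CPM in control and at 9.97, 8.16 and 10.7 CPM in p57 KO (-0.01, SE 0.13, edgeR adjusted p = 0.964). Its libraries were mixed between the groups. Per kilobase of exon, the control level of Cdc25c was 1.97 ± 0.269 RPKM (SD, n = 3), below that of Cdc25a with 10 ± 0.0754 RPKM and the lowest of the 40 genes.

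Among 6 mitotic kinases, Plk1 alone was called in edgeR. Plk1 encodes polo-like kinase 1, which acts in mitotic entry, spindle assembly and cytokinesis (chromosome 7, 122159439 to 122169873, plus strand). It stood at 47, 47.4 and 43.3 CPM in control and at 48.7, 56 and 57.3 CPM in p57 KO, with p57 KO replicate 1 close to the control libraries. Plk1 rose by 0.24 on the log2 scale (SE 0.06, edgeR adjusted p = 0.00759). That p was 0.0567 when control replicate 3 was left out and 0.0566 when p57 KO replicate 2 was. Aurka, the Aurora kinase of centrosomes and spindle poles, had the second largest log2 fold change, with wide spread. It stood at 41.3, 45.7 and 36.6 CPM in control and at 45, 51.2 and 55.6 CPM in p57 KO (0.30, SE 0.10, edgeR adjusted p = 0.076), and DESeq2 and limma-voom called it higher. Without p57 KO replicate 1 its log2 fold change was 0.37 (edgeR adjusted p = 0.0015) and without control replicate 2 it was 0.38 (0.0161).

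The other Aurora kinase and the checkpoint kinases did not share that direction. Aurkb, the kinase of the chromosomal passenger complex, stood at 53.1, 59 and 51.6 CPM in control and at 50.5, 58.2 and 51.4 CPM in p57 KO (-0.03, SE 0.06, edgeR adjusted p = 0.744). Its partners Birc5 (survivin) and Cdca8 (borealin) had 0.08 and 0.05 and were not called by edgeR, DESeq2 or limma-voom, nor at an unadjusted p under 0.05 in edgeR. Ttk, the checkpoint kinase MPS1, had -0.05, and Bub1, a checkpoint kinase at kinetochores, had -0.07 (edgeR adjusted p = 0.154). Nek2, a kinase that separates centrosomes, had 0.09 (edgeR adjusted p = 0.0958).

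Among the spindle checkpoint and APC/C genes, Ube2c rose. Ube2c encodes the ubiquitin-conjugating enzyme that works with the APC/C (chromosome 2, 164769898 to 164778822, plus strand). It stood at 47.5, 51.3 and 48.6 CPM in control and at 51.5, 64.7 and 56 CPM in p57 KO (log2 fold change 0.22, SE 0.07, edgeR adjusted p = 0.0461). P57 KO replicate 2 was far above the others and replicate 1 was barely above control replicate 2. The call held in 1 of the 6 fits that left out a library, that without p57 KO replicate 1. Its adjusted p was 0.173, 0.0685 and 0.167 without control replicates 1, 2 and 3, and 0.132 and 0.0757 without p57 KO replicates 2 and 3. Cdc20, the activator of the APC/C, had 162, 161 and 158 CPM in control and 159, 178 and 172 CPM in p57 KO (0.08, SE 0.04, edgeR adjusted p = 0.104), and was called higher without p57 KO replicate 1 (0.13, edgeR adjusted p = 0.00605). Bub1b and Mad2l1, the checkpoint proteins BUBR1 and MAD2, had 0.04 and -0.02.

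The centromere and kinetochore genes were called in both directions: Cenpe, Cenpf and Ndc80 rose and Cenpa fell. Cenpf encodes a large kinetochore protein that builds up in G2 (chromosome 1, 189640606 to 189688086, minus strand). It stood at 328, 328 and 317 CPM in control and at 352, 396 and 374 CPM in p57 KO. All 3 p57 KO libraries were above all control libraries. The means were 324 ± 6.74 and 374 ± 21.9 CPM (SD, n = 3 each), and the rise of 0.21 on the log2 scale (SE 0.04, edgeR adjusted p = 0.000684) was called in all 6 fits without 1 library, with a largest edgeR adjusted p of 0.00923. Ndc80, a subunit of the complex that grips microtubules, stood at 62.3, 61.6 and 57.1 CPM in control and at 63.7, 72.6 and 71.7 CPM in p57 KO (0.20, SE 0.05, edgeR adjusted p = 0.00742). Its adjusted p was 0.0603 when control replicate 3 was left out and 0.0585 when p57 KO replicate 2 was. Cenpe, the kinesin that carries chromosomes to the spindle equator, stood at 128, 123 and 118 CPM in control and at 131, 138 and 141 CPM in p57 KO (0.15, SE 0.04, edgeR adjusted p = 0.0055), with 0.054 without control replicate 3.

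Cenpa, the histone H3 variant that marks centromeres, went the other way (chromosome 5, 30666777 to 30674830, plus strand). It stood at 92.9, 90.5 and 89.2 CPM in control and at 82.2, 86.8 and 82.3 CPM in p57 KO. The groups did not overlap, and Cenpa fell by 0.12 on the log2 scale (SE 0.04, edgeR adjusted p = 0.0314). The call was lost when control replicate 1 or 2 was left out (edgeR adjusted p = 0.12 and 0.0657) or p57 KO replicate 1 or 3 (0.0701 and 0.0989), and DESeq2 gave an adjusted p of 0.141.

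All 8 spindle motor and assembly genes had a positive log2 fold change, from 0.09 to 0.32, and 3 of them rose. At an unadjusted p under 0.05, 5 were higher and none lower. Hmmr, a spindle protein that works with TPX2 at spindle poles, had the largest fold change of the 40 genes (chromosome 11, 40701395 to 40733422, minus strand). It stood at 27.8, 30 and 31.4 CPM in control and at 32, 39.7 and 39.5 CPM in p57 KO, where replicate 1 lay just above control replicate 3. The means were 29.7 ± 1.78 and 37.1 ± 4.4 CPM (SD, n = 3 each; log2 fold change 0.32, SE 0.08, edgeR adjusted p = 0.00802), with 0.27 and an adjusted p of 0.0529 without p57 KO replicate 2. Tpx2, which activates Aurora A on the spindle, stood at 79.1, 81.1 and 74.8 CPM in control and at 82.5, 96.5 and 93.9 CPM in p57 KO (0.22, SE 0.05, edgeR adjusted p = 0.00921). Its adjusted p was 0.0559 when control replicate 3 was left out and 0.0511 when p57 KO replicate 2 was. Kif2c, a kinesin that takes microtubules apart at centromeres, stood at 80.6, 76.2 and 73.2 CPM in control and at 82.2, 88.8 and 83.7 CPM in p57 KO (0.15, SE 0.04, edgeR adjusted p = 0.0171). The call of Kif2c was lost without control replicate 2 (0.0677), control replicate 3 (0.122) or p57 KO replicate 2 (0.119), and in DESeq2 (0.0677).

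The other spindle genes were not called, although none had a negative value. Kif11, the kinesin that pushes spindle poles apart, had 0.09, the chromokinesin gene Kif4 had 0.10, and Aspm, which acts at spindle poles, had 0.13. Ckap2l and Nusap1, which bind spindle microtubules, had 0.15 and 0.20 (edgeR adjusted p = 0.131 and 0.136). Nusap1 had wide spread, at 23.2, 21.5 and 20.4 CPM in control and at 22, 29.1 and 23.7 CPM in p57 KO.

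None of the 5 genes of the central spindle and cytokinesis was called in edgeR, where 1 was higher and none lower at an unadjusted p under 0.05. DESeq2 and limma-voom each called Prc1, the protein that bundles microtubules between the separating chromosomes. Prc1 stood at 66.2, 70.7 and 63 CPM in control and at 68.3, 81.5 and 79.6 CPM in p57 KO (0.20, SE 0.07, edgeR adjusted p = 0.0563), and edgeR called it without control replicate 2 (0.24, adjusted p = 0.0383). Racgap1, part of the complex that places the cleavage furrow, had 0.0015, and its partner kinesin Kif23 had 0.08. Kif20a, a kinesin of the midzone, had 0.05, and Anln, which ties the contractile ring together, had -0.04.

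Among 3 genes of chromosome structure and mitotic entry, Top2a rose and Mki67 and Cdca3 were not called in edgeR. At an unadjusted p under 0.05 in edgeR all 3 were higher, and DESeq2 and limma-voom each called 2 of the 3 higher. Top2a encodes the topoisomerase that untangles sister chromatids (chromosome 11, 98992943 to 99024189, minus strand). It stood at 403, 428 and 397 CPM in control and at 421, 471 and 460.0 CPM in p57 KO (0.14, SE 0.04, edgeR adjusted p = 0.036). P57 KO replicate 1 lay below control replicate 2. The call was lost when control replicate 1 or 3 was left out (adjusted p = 0.135 and 0.146) or p57 KO replicate 2 or 3 (0.116 and 0.0937). Mki67, the gene of the Ki-67 antigen used to score proliferating cells, stood at 259.8, 258 and 249 CPM in control and at 257, 296 and 292 CPM in p57 KO (0.14, SE 0.05, edgeR adjusted p = 0.0917). Mki67 was called higher in 1 of the 6 fits that left out a library (edgeR adjusted p = 9.18e-06). Cdca3, a trigger of mitotic entry, had 0.13 (edgeR adjusted p = 0.119).

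**Figure D3:**
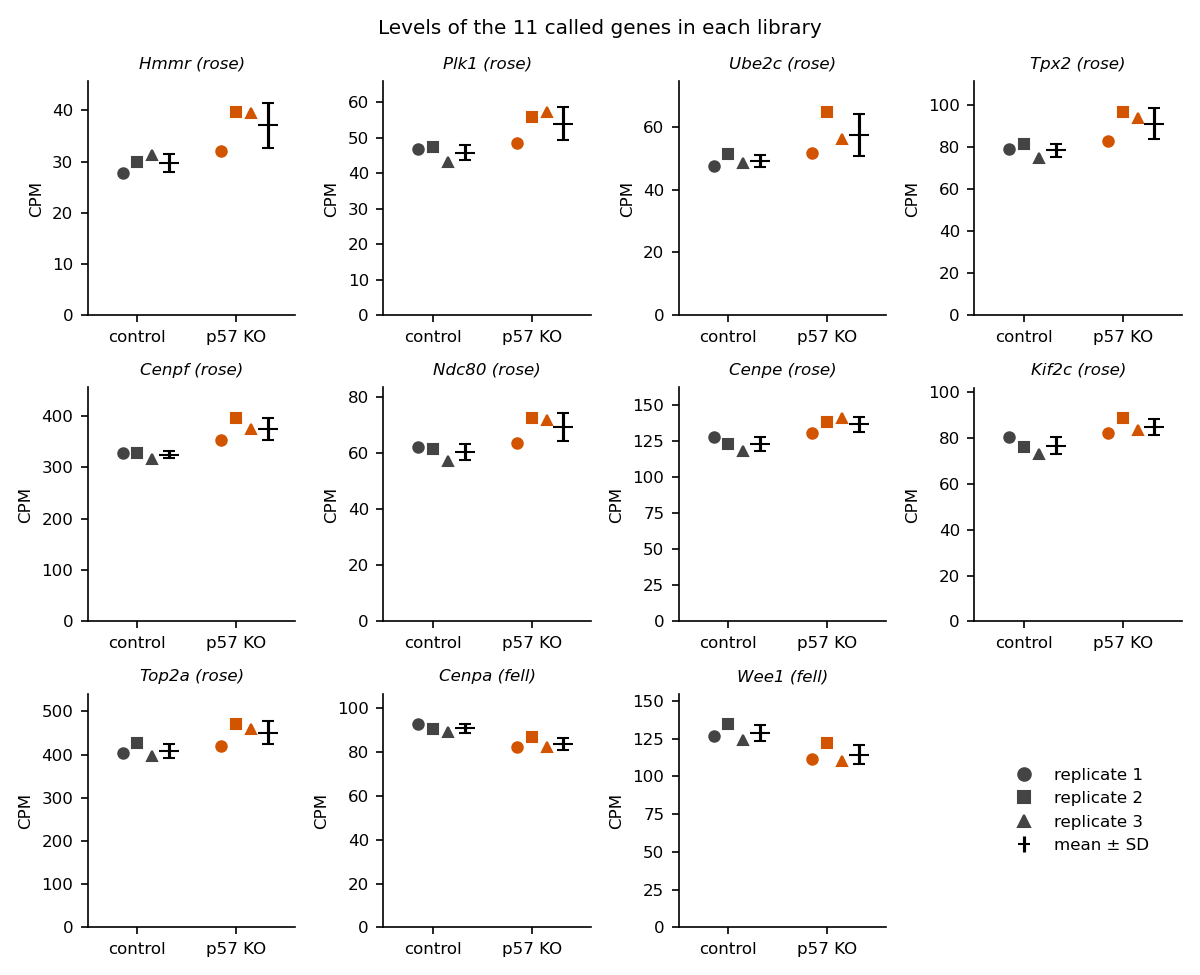
CPM of the 11 called genes in each library, with the control libraries on the left and the p57 KO libraries on the right of each panel, marker shapes for replicate numbers and bars for mean ± SD over 3 libraries. In most risen genes p57 KO replicate 1 sits close to the control libraries and replicates 2 and 3 sit above them.

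The libraries of the p57 KO group were not alike in these genes. The mean log2 level of the 40 genes relative to the control mean was 0.01, 0.03 and -0.05 in control replicates 1 to 3 and -0.0030, 0.16 and 0.10 in p57 KO replicates 1 to 3. P57 KO replicate 1 was thus at the control level. It was the lowest p57 KO library in 34 of 40 genes (85.0%, against 34.2% of all tested genes), and replicate 2 was the highest in 34 (85.0%, against 30.1%). Of the 40 genes, 11 lay above the highest control library in p57 KO replicate 1, 32 in replicate 2 and 28 in replicate 3. In the control group, replicate 3 was the lowest library in 28 genes (70.0%, against 33.1% of all tested genes).

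The marker lists were also ordered within the p57 KO group. The mean log2 level of the fibroblast markers relative to the control mean was -0.19, 0.36 and -0.17 in control and 0.69, 1.30 and 1.84 in p57 KO replicates 1 to 3. The order was the same as that of the mitosis genes at the lowest library and differed at the top. The spermatogonia markers had 0.03, -0.02 and -0.0029 in control and -0.18, -0.26 and -0.29 in p57 KO. The part of other cells in the levels of the mitosis genes was not tested. For 32 S phase genes, the levels were 0.0030, 0.01 and -0.01 in control and 0.0052, 0.02 and -0.05 in p57 KO, so the S phase genes did not show the higher level of p57 KO replicates 2 and 3.

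**Figure D4:**
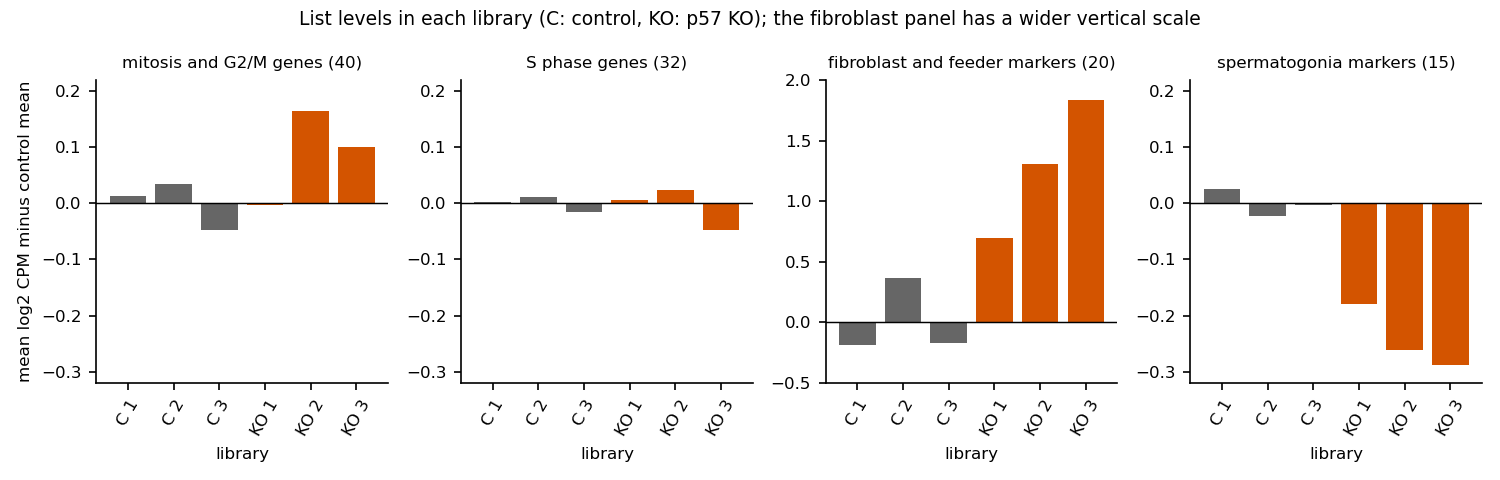
Mean log2 CPM minus the control mean for the 40 mitosis and G2/M genes, 32 S phase genes, 20 fibroblast markers and 15 spermatogonia markers, with 1 bar per library. The mitosis genes stand at 0.16 and 0.10 in p57 KO replicates 2 and 3 and at -0.0030 in replicate 1, while the fibroblast markers stand at 0.69 to 1.84 in p57 KO on a wider scale.

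As a description over 6 libraries that share depth and group, the median correlation between 2 of the genes was 0.65, and 645 of 780 pairs were above 0. Over all pairs of tested genes the median was 0.0, and over pairs of the 9581 genes within the same CPM range it was 0.024. With the group means removed, the median was 0.69 and 731 of 780 pairs (93.7%) were above 0, and 23 genes had a correlation over 0.8 with the mean of the others. The same median, with the group means removed, was 0.006 for the genes of that CPM range, 0.341 for the S phase genes and 0.927 for the fibroblast markers. Tpx2 and Cenpf followed the others with 0.95 and 0.89, and with 0.98 each after the group means were removed. The fallen genes Wee1 and Cenpa had -0.22 and -0.30 before and 0.74 each after removal of the group means, so within a group they ran with the other genes. Bub1 and Ccnb1 went from 0.08 and 0.23 to 0.98 and 0.87. Cdc25c, the lowest gene, had -0.15 and -0.16.

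**Figure D5:**
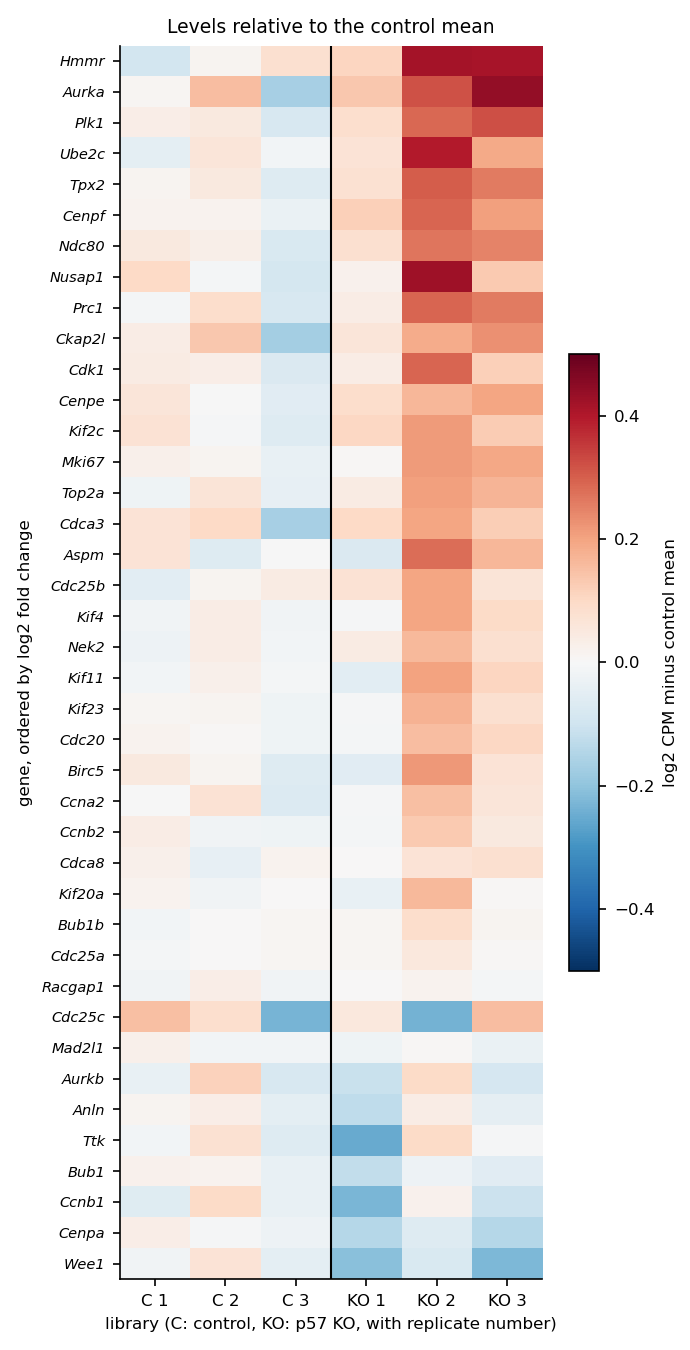
Log2 CPM minus the control mean of each of the 40 genes (rows, ordered by log2 fold change) in the 6 libraries (columns), red for higher and blue for lower. P57 KO replicate 2 is the highest p57 KO library in 34 genes and replicate 1 the lowest in 34.

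Per kilobase of exon, the control levels ran from 1.97 RPKM for Cdc25c to 85.7 ± 1.19 RPKM (SD, n = 3) for Cdc20, with a median of 15.9. Top2a and Ccnb2 followed with 45.4 ± 1.8 and 41.8 ± 0.977 RPKM, then Kif20a and Wee1 with 37.7 ± 0.471 and 37.6 ± 1.56 RPKM, which did not differ beyond their spread. Cdk1 stood at 9.67 ± 0.423 RPKM, below both B cyclins. The length counts all annotated exons of a gene, whichever transcript was in use, so these ranks depend on the annotation. It was 4934 bases for Cdk1 and 1531 bases for Ccnb2, whose control means were 47.7 and 64.0 CPM. The most risen gene, Hmmr, was among the lowest at 5.48 ± 0.328 RPKM, next to Nusap1 at 5.35 ± 0.353 RPKM. Exons of 13 of the genes overlap a gene on the other strand, among them Kif20a with Cdc23 over 1271 bases, Prc1 with Rccd1 over 911 bases, Ube2c with Tnnc2 over 592 bases and Plk1 with Gm44985 over 156 bases. No label states whether reads were counted by strand, so the counts of these genes are uncertain.

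The other genes of mitosis, taken from lists by role, were called in both directions. Of 24 regulators of CDK1 and of the FOXM1, B-MYB and DREAM program, 3 rose and 4 fell, with a median log2 fold change of -0.02. That is near the 11.6% of all tested genes called in each direction. DESeq2 called 2 higher and 1 lower, so not every call named here held in it. With a library left out, the number that fell was 1 to 3. It was 1 without control replicate 2 or p57 KO replicate 2. It was 2 without control replicate 1, control replicate 3 or p57 KO replicate 3. Gtse1, a microtubule-binding protein that is made in G2 and restrains p53, stood at 142, 150.2 and 148 CPM in control and at 198, 210.3 and 202 CPM in p57 KO. All p57 KO libraries were far above control, including replicate 1, and the rise of 0.47 on the log2 scale (SE 0.03, edgeR adjusted p = 1.99e-09) stayed called under every alternative that was run. Ccnf, cyclin F, rose by 0.16 (edgeR adjusted p = 0.00235), and E2f5, a repressor E2F that can bind DREAM pocket proteins, fell by 0.30 (edgeR adjusted p = 0.000904). With the fibroblast covariate neither was called, with 0.13 and an edgeR adjusted p of 0.398 for Ccnf and -0.22 and 0.412 for E2f5. Mybl2, the gene of B-MYB, fell by 0.15 (edgeR adjusted p = 0.0309). Of the DREAM genes, Lin54 fell by 0.17 (0.0215) and Rbl2 rose by 0.50 (0.00928). Rbl2 was low, at 5.10, 6.06 and 5.31 CPM in control and at 7.26, 7.85 and 8.12 CPM in p57 KO. Of the 24 genes only Gtse1 was called with the fibroblast covariate.

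Of 20 further spindle motors and microtubule factors, 8 rose and 1 fell, against 11.6% of all tested genes in each direction, with a median of 0.09. Kifc1, a minus-end-directed kinesin that focuses spindle poles, stood at 53, 53.3 and 50 CPM in control and at 64.6, 69.6 and 73.7 CPM in p57 KO (0.41, SE 0.05, edgeR adjusted p = 4.62e-06). Kif18b, a kinesin of astral microtubules, and Ckap2, a spindle protein, rose by 0.23 and 0.21 (edgeR adjusted p = 0.000211 and 0.000315). Between 6 and 10 of these 20 genes rose when 1 library was left out, while 7.78% to 14.2% of all tested genes rose, and none was called in edgeR with the fibroblast covariate, where 2 were higher and 1 lower at an unadjusted p under 0.05 and 1.48% of all tested genes rose.

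The counts of the remaining lists are read against the 11.6% of all tested genes called in each direction. Of 29 kinetochore genes 1 rose and 2 fell, which is below that share: Cenpm had 0.27 (edgeR adjusted p = 0.0267), Cenpq -0.19 (0.032) and Ska3 -0.18 (0.0486). DESeq2 called none of the 29, and edgeR had 4 higher and 4 lower at an unadjusted p under 0.05. Leaving out 1 library, the adjusted p of Cenpm reached 0.133 without control replicate 3, that of Cenpq 0.0976 and that of Ska3 0.224, both without control replicate 1. Of 17 APC/C genes 2 rose and 2 fell, which is near it, led by Anapc13 with 0.32 (edgeR adjusted p = 0.000597), Cdc16 with 0.16 (0.00172) and Anapc11 with -0.18 (0.00709). For Anapc11 the adjusted p was 0.0508 when control replicate 3 was left out, and with the fibroblast covariate its sign changed (0.017, edgeR adjusted p = 0.963).

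Of 12 genes of the spindle checkpoint and centromere protection, Incenp, the scaffold of the chromosomal passenger complex, rose by 0.20 (edgeR adjusted p = 0.00138), none fell, and Haspin and Zw10 had -0.18 and -0.08 without a call. Of 20 cohesin, condensin and separase genes 2 rose and 3 fell, among them Espl1, the separase gene, with 0.11 (edgeR adjusted p = 0.00742), Pds5b with -0.11 (0.0148) and Ncapg2 with -0.10 (0.035). Each of these 3 lost its call without control replicate 3, at 0.0507, 0.0721 and 0.0553. Pds5b also lost it without control replicate 2 (0.0641) or p57 KO replicate 3 (0.0782), and Ncapg2 without control replicates 1 or 2 (0.0602 and 0.122) or p57 KO replicates 1 or 2 (0.0891 and 0.0588). Of 12 cytokinesis genes 2 rose, Chmp4b of the abscission machinery by 0.21 (edgeR adjusted p = 0.000209) and the citron kinase gene Cit by 0.21 (0.000765), and Cdca2 had 0.10 (0.161). With the fibroblast covariate edgeR called no gene of the kinetochore, APC/C, spindle checkpoint, cohesin and condensin or cytokinesis lists. Anapc13, Cdc16, Incenp, Chmp4b and Cit thus lost their calls there, where 1.48% of all tested genes rose and 0.972% fell. Of 32 S phase genes 2 rose and 6 fell, with a median of -0.0089. Only 2 fell without control replicate 1, control replicate 2 or p57 KO replicate 3 and 3 without control replicate 3, when 8.62%, 8.9%, 8.52% and 7.77% of all tested genes fell. None was called in edgeR with the fibroblast covariate, where 5 were higher and 1 lower at an unadjusted p under 0.05 (0.972% of all tested genes fell). Ccne1, cyclin E1 of the G1 to S step, rose by 0.21 (edgeR adjusted p = 0.00429), while Rfc5 of the clamp loader and Rrm1 of ribonucleotide reductase fell by 0.15 (0.00788) and 0.10 (0.0109).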

How the data were processed

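RNA-seq counts of 6 libraries (3 control, 3 p57 KO) were used. The authors deposited raw read counts per gene in 1 table. Per the submitters' processing notes, the tools were HISAT2 2.2.1 and HTSeq 2.0.2, with cutadapt 3.4 and bcl2fastq 2.20, and the build was mm10. The annotation and strand setting are not stated there.

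Counts were filtered with filterByExpr, normalised by TMM and fitted in edgeR (quasi-likelihood F-test, robust dispersions; edgeR 4.0.16, limma 3.58.1, R 4.3.3), with Benjamini-Hochberg adjustment over 14814 genes. At a common biological coefficient of variation of 4.35%, small differences of well expressed genes could pass. Totals were 15662833 to 17893671 counts. No pair of replicates agreed within sampling noise (chi-square per degree of freedom 1.69 to 5.97), so none was counted as a duplicate. RPKM used the joint length of all exons of a gene in GENCODE M21. The fitting code was tested on simulated data, with changed genes drawn from all tested genes at any level. It recovered 44.8% of genes changed by a fold of 1.2, 70.1% at 1.5 and 84.8% at 2. A gene that was not called may therefore still differ.

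The 40 genes, their roles, the other lists and the alternatives were chosen with earlier results of these data known. The naming rule took all 40 genes, with values per library for called genes, the CDC25 genes, Wee1, Cdk1 and the cyclins, and up to 3 genes of smallest p from each further list. Values per library of other genes, and the values of Mybl2, Lin54 and Rbl2, were added after the values were seen. The alternatives were RLE factors, DESeq2 1.42.0, limma-voom, other filters, a replicate block, each library left out, a fibroblast covariate and a test against a fold of 1.2. Protein sequences were not used here.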

Additional observations from a re-analysis of the deposited data

How the results depend on the processing

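With RLE factors, the filter at 1 CPM in 3 libraries, DESeq2 and limma-voom, 9 to 12 of the 40 genes rose. The number was 14 with no filter, 0 with the fibroblast covariate, 0 against a fold of 1.2, and 2 to 21 with 1 library left out. With RLE factors, DESeq2, limma-voom and the other filters, the shares of all tested genes that rose are not given here. The number that fell was 2 with RLE factors, limma-voom and the 1 CPM filter, 3 with no filter, 1 in DESeq2 and with the fibroblast covariate, 0 against a fold of 1.2, and 1 to 3 with 1 library left out. The median log2 fold change was 0.05 to 0.13 with 1 library left out and -0.012 with the fibroblast covariate. Of all tested genes, 219 rose and 144 fell with that covariate, 414 and 55 against a fold of 1.2, and DESeq2 had 1044 lower. With 1 library left out, 1180 to 2136 rose and 1178 to 1893 fell. Cdkn1c had -1.27 to -1.19 over all alternatives.

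With the fibroblast covariate the sign changed for Ccna2 (-0.050), Plk1 (-0.0068), Aurka (-0.089), Mad2l1 (0.0037), Cdc20 (-0.019), Birc5 (-0.039), Kif11 (-0.070), Kif4 (-0.019), Aspm (-0.021), Ckap2l (-0.10), Kif23 (-0.0010), Prc1 (-0.062), Racgap1 (-0.017), Top2a (-0.025) and Mki67 (-0.032). The cause was not tested. Without a filter Racgap1 had -0.00034. With 1 library left out the range crossed 0 for Cdc25c (-0.12 to 0.091), Aurkb (-0.10 to 0.025), Ttk (-0.13 to 0.041), Kif20a (-0.018 to 0.083) and Racgap1 (-0.0094 to 0.017).

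Same-numbered deviations correlated at 0.19, 0.02 and -0.10, and not every library correlated best with its own number. With 3 libraries per group, these values cannot decide whether the replicate numbers pair the libraries. With the replicate block, 12 of the 40 genes rose and 3 fell, the median was 0.09, and 1934 and 1772 of all tested genes rose and fell. The block added calls for Ccnb1, Cdk1, Prc1 and Mki67. Precision was lowest for Cdc25c and Aurka, with SEs of 0.13 and 0.10 on the log2 scale.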
